A study of Mus musculus with 2 samples.

Results

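The genes described are 40 genes of mitosis and DNA replication, measured in stromal cells of the fat around the mouse aorta. They were taken by symbol from the 31053 genes of the count tables, and all 40 were found. They fall into 23 mitotic and 17 S-phase genes. The data are 2 single-cell RNA libraries of wild-type (WT) mice, 1 labelled young and 1 labelled old, with no other allele or agent named. Both came from perivascular adipose tissue, freed with collagenase, strained, cleared of red blood cells and loaded as primary perivascular stromal cells. The ages, the number and sex of the mice, pooling, any time in culture and the stretch of aorta are not stated. With 1 library per age no difference below has a replicate check, no p-value is given, and age and library cannot be told apart.

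A dividing cell copies its genome in S phase and separates the copies in mitosis. The MCM proteins form the helicase that opens DNA at licensed origins, Pcna clamps the polymerase onto the template, and ribonucleotide reductase and thymidylate synthase supply the nucleotides. Transcripts of mitotic genes such as Cdk1, its cyclins and the spindle motors build up after replication and are kept low in resting cells by repressor complexes at CHR elements, while many replication genes are under E2F factors. Most stromal fibroblasts of an adult artery wall rest outside the cycle.

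Promoter stretches are shown because the mitotic and S-phase genes differ in the motifs they carry. RefSeq promoter windows of GRCm38.p6, from 250 bases before to 50 bases after the annotated start, were at hand for 34 of the 40 genes in 37 windows. Mcm4, Ccne2, Gins2, Ccna2, Tpx2 and Aurkb had no entry. Windows were searched on both strands for the CHR element (TTTGAA or TTCGAA), the CCAAT box (CCAAT) and E2F motifs (TTCCCGC, the form TTCGCGC, the form TTGCCGC and the form TTGGCGC). The lines below give the 120 bases directly before the start, 5′ to 3′ on the gene's strand, with every match on either strand in capitals.
Cdk1: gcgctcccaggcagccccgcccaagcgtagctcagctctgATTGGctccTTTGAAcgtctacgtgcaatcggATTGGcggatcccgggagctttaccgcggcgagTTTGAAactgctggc
Cdc20: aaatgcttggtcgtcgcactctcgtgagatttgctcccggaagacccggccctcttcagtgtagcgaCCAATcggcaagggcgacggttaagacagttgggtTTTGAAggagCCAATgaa
Top2a: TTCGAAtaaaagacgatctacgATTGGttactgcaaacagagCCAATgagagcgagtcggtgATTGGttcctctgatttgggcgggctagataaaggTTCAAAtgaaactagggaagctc
Ccnb2: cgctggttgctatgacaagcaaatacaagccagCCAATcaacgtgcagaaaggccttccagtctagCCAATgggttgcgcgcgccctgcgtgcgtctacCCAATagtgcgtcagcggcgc
Rrm1: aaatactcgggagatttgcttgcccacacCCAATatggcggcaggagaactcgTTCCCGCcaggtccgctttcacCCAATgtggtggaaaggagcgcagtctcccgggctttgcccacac
Mcm6: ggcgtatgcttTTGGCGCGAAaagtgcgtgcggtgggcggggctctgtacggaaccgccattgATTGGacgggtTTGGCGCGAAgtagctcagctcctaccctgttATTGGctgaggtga
Tyms: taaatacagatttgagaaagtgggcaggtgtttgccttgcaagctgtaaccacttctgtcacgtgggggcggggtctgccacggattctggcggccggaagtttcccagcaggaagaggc
The stretches lie at chr10:69352913-69353032 (Cdk1, minus strand), chr4:118437344-118437463 (Cdc20, minus), chr11:99024190-99024309 (Top2a, minus), chr9:70421555-70421674 (Ccnb2, minus), chr7:102441575-102441694 (Rrm1, plus), chr1:128359706-128359825 (Mcm6, minus) and chr5:30073626-30073745 (Tyms, minus). They are upstream sequence except for the last 26 bases of the Cdk1 and the last 9 of the Cdc20 stretch, which GENCODE vM21 places in an exon of the same gene. Cdk1, Cdc20 and Top2a carried a CHR match within 25 bases of the start beside CCAAT boxes. Ccnb2 carried 3 CCAAT boxes in the stretch, and its CHR matches lay outside it, 167 bases before and just after the start. Rrm1 and Mcm6 carried E2F and CCAAT matches and no CHR. The Mcm6 capitals TTGGCGCGAA are 2 overlapping E2F matches on opposite strands. The Tyms stretch, shown because Tyms had the highest old-to-young ratio of the S-phase genes, held none of the motifs.

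Over whole windows, a CHR match was in 18 of 21 mitotic windows (85.7%), in 2 of 16 S-phase windows (12.5%, Mcm2 and Mcm7) and in 19.2% of all 32851 promoter windows. The CCAAT box was in 95.2% of mitotic, 75% of S-phase and 37.4% of all windows. E2F matches were in 14.3% of mitotic, 75% of S-phase and 9.57% of all windows. The mitotic genes with an E2F match were Cdk1, Ccnb1 and Mki67, and the CHR-free mitotic windows were those of Birc5, Ccnb1 and Cenpe. TTGGCGC can overlap a reversed CCAAT box, as in Ccnb1. A match describes letters in a window and does not show that a factor binds.

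Each barcode, which stands for about 1 cell, was placed by marker genes. Endothelial, mesothelial and Schwann gates needed transcripts of at least 4 of 10 markers, a barcode with more collagen transcripts than 50% of its library's mesenchymal median was left out as mixed, and mesenchymal barcodes passed no other gate. The young library gave 10656 mesenchymal, 32 endothelial, 45 mesothelial and 39 Schwann barcodes from 11453 kept barcodes. The old library gave 10438, 960, 10 and 47 from 12207. The median mesenchymal barcode held 9101 (young) or 9375 (old) unique molecular identifiers (UMIs, counted transcripts). From 9 to 10 of 10 own markers were detected in each of the 3 smaller gates of either library. The gates select on these same markers, so this is no separate check of cell identity. Exactly 4 markers were held by 5 young and 196 old endothelial, 115 and 16 mesothelial and 33 and 43 Schwann barcodes, before mixed ones were left out. The libraries shared 275 barcode sequences, 168 of them mesenchymal in both. Levels are CPM, UMIs per 1000000 UMIs of the gate, and all intervals are 95% and cover counting error only.

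In mesenchymal barcodes the mitotic genes together were at almost the same level in both libraries, and the S-phase genes were slightly lower in the old one. The 23 mitotic genes summed to 1066 CPM (young, 113966 UMIs) and 1042 CPM (old, 114543 UMIs), a log2(old/young) of -0.03 (exact Poisson interval -0.04 to -0.02). The 17 S-phase genes summed to 569.9 and 517 CPM, a log2 of -0.14 (-0.16 to -0.12). S-phase UMIs per mitotic UMI were 0.535 (young, 0.529 to 0.540) and 0.496 (old, 0.491 to 0.501). Both ratios lie within 1.5-fold. Scaling by median-of-ratios size factors in place of total UMIs shifts every mesenchymal log2 ratio by -0.12. It gives -0.15 and -0.26 for the sums.

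Single genes departed from the sums in both directions. Of the 40 genes, 2 had an old level at least 1.5-fold above the young one and 0 had one that far below it. Over all 15221 genes with at least 20 mesenchymal UMIs, 19.5% were that much higher and 12.4% that much lower. The members' median log2 was -0.05, that of all genes 0.12. The share of members past 1.5-fold in either direction was below the background. With size factors the lower count became 2, Pclaf (-0.66) and Cdca3 (-0.62), Kif11 and Pcna turned from slightly above to slightly below 0, and the higher count stayed at 2.

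Among the regulators of mitotic entry, Cdk1, the kinase that drives cells into mitosis (chr10:69335146-69352938, mm10), was at 48.5 CPM (young) and 81.0 CPM (old). Its log2(old/young) was 0.74 (0.69 to 0.79), the highest of the 40. Ccnb1, the cyclin B1 partner of Cdk1, was at 39.4 and 52.9 CPM (0.42, 0.37 to 0.48). Ccnb2 stood at 37.4 and 41.1 CPM (0.13) and Ccna2, cyclin A2, at 39.4 and 36.0 CPM (-0.13). The entry regulators thus did not move as 1 group, with Cdk1 and Ccnb1 above and Ccna2 below equality.

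The kinase genes Aurka and Plk1 and the exit activator Cdc20 were also higher in the old library without reaching 1.5-fold. Cdc20, which activates the anaphase-promoting complex, was at 37.0 CPM (young) and 53.6 CPM (old) (log2 0.54, 0.48 to 0.59). Aurka, the spindle pole kinase, was at 15.2 and 21.3 CPM (0.49, 0.40 to 0.58). Plk1, the polo kinase, was at 12.4 and 15.6 CPM (0.33, 0.23 to 0.44). Tpx2, which targets Aurka to the spindle, did not share that direction, at 46.6 and 42.5 CPM (-0.13, -0.19 to -0.08). Aurkb, the kinase of the chromosomal passenger complex, was at 13.6 and 15.1 CPM and its partner Birc5 (survivin) at 101.6 and 92.8 CPM.

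Cenpe, Cenpf, Spc25, Bub1 and Bub1b, which act at kinetochores or in the checkpoint, were lower in the old library, again by less than 1.5-fold. Other genes of the 40 with such roles, Cdc20, Plk1 and Aurkb, were higher there, as given above. Cenpe, a kinetochore motor, was at 33.6 CPM (young) and 25.7 CPM (old) (log2 -0.39, -0.46 to -0.31). Cenpf was at -0.21, Spc25, a subunit of the NDC80 complex, at -0.27, the kinase Bub1 at -0.25 and Bub1b at -0.27, and all 4 intervals lay below 0. Kinetochore genes outside the 40, named after their values were seen, did not all share that direction. Of the partners of Spc25, Ndc80 was at 0.42 (0.26 to 0.58), Nuf2 at 0.02 (-0.08 to 0.12) and Spc24 at -0.32 (-0.38 to -0.25). Cdca3, which promotes mitotic entry, was the lowest mitotic gene, at 81.2 and 57.5 CPM (-0.50, -0.55 to -0.45).

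Of the spindle and chromosome genes among the 40, some lay close to equality and others were lower in the old library. Kif11, the motor that sets up the bipolar spindle, was at log2 0.10, Kif23, a motor of the midzone, at 0.00 and Prc1, which bundles midzone microtubules, at -0.06. Top2a, which untangles DNA, was at 106.1 CPM (young) and 99.2 CPM (old) (-0.10, -0.13 to -0.06). Smc2, a condensin subunit, and Hmgb2, a chromatin protein, were lower, both at -0.22 with intervals below 0. Mki67, which coats mitotic chromosomes and encodes the Ki-67 antigen, was at 37.1 and 41.1 CPM (0.15, 0.08 to 0.21).

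Of the S-phase genes, Tyms, which makes thymidylate (chr5:30058202-30073617), stood highest, at 38.2 CPM (young) and 62.4 CPM (old) (log2 0.71, 0.65 to 0.76). Of the ribonucleotide reductase subunits, Rrm1 was near equality, at 61.7 and 61.3 CPM (-0.01, -0.06 to 0.04). Rrm2 was slightly higher in the old library, at 40.8 and 47.1 CPM (0.21, 0.15 to 0.26). Pclaf, a factor that binds Pcna (chr9:65890237-65903266), was lowest, at 208.8 and 144.1 CPM (-0.54, -0.56 to -0.51). Pcna itself was at 22.5 and 22.8 CPM (0.02, -0.06 to 0.10), so the clamp and its binding factor differed in ratio.

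Of the helicase genes, Mcm6 had the lowest ratio. Mcm2, Mcm3, Mcm4, Mcm5 and Mcm7 had log2 ratios from -0.14 (Mcm4) to 0.15 (Mcm3). Mcm6 was at 27.8 CPM (young) and 21.7 CPM (old) (-0.36, -0.44 to -0.28). Of the factors that load the helicase, Cdt1 was at 0.30 (0.16 to 0.44) and Cdc6 at -0.04 (-0.26 to 0.19) with only 326 and 327 UMIs. Gins2, a subunit of the active helicase, was at -0.27, cyclin E genes Ccne1 and Ccne2 at -0.23 and -0.38, and Uhrf1, which reads hemimethylated DNA behind the fork, at -0.05 (-0.15 to 0.05).

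**Figure D1:**
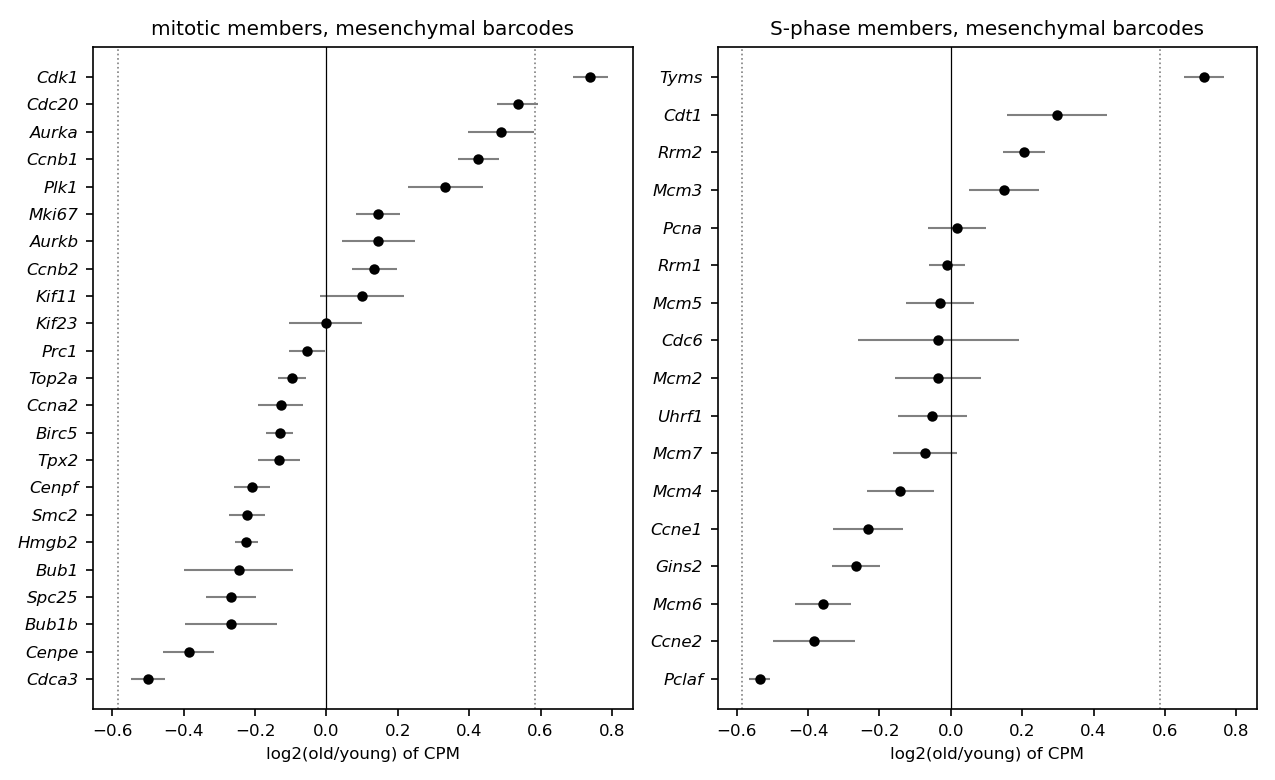
Log2(old/young) of CPM for the 23 mitotic (left) and 17 S-phase genes (right) in mesenchymal barcodes. Points are ratios of 2 libraries, bars 95% Poisson intervals, the solid line equality and dotted lines 1.5-fold. Cdk1 (0.74) and Tyms (0.71) lie past the upper dotted line, and Pclaf (-0.54) and Cdca3 (-0.50) lie lowest.

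Other annotated genes overlap 8 members, 7 on the opposite strand and 1 on the same strand. Reads of the 7 could be shared with these neighbours only if counting ignored the strand. Counting by strand is not stated in the sources used here, and sharing was not tested. Pclaf lies opposite Trip4, Prc1 opposite Rccd1, Ccne2 opposite Ints8, Gins2 opposite Gse1, Ccna2 opposite Exosc9, Cdc20 opposite Elovl1 by 53 bases and Mcm7 opposite Cops6 and Ap4m1. Cdt1 lies inside Gm20388, which had 0 UMIs in mesenchymal barcodes. Cdk1, Tyms and Cdca3 overlap no other gene of the count tables.

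The share of barcodes in each phase was taken after drawing 3000 UMIs from every barcode, so that all were compared at 1 depth. A mitotic or an S-phase call needed UMIs of at least 3 genes of that group. Such calls mark a range of expression and not a distinct cell type. Shallower barcodes, 361 young and 174 old mesenchymal ones, were left out.

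Mitotic calls were less frequent among old mesenchymal barcodes. There were 2733 of 10295 young (26.5%, Clopper-Pearson interval 25.7 to 27.4) and 2302 of 10264 old barcodes (22.4%, 21.6 to 23.3). The difference was -4.12 percentage points (Newcombe interval -5.29 to -2.94). S-phase calls were in 15.9% of young (15.2 to 16.6) and 14.7% of old barcodes (14.0 to 15.4), a difference of -1.13 points (-2.11 to -0.147). Without thinning, the shares were 42.3% and 37.7% for mitotic and 40.1% and 37.6% for S-phase calls.

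These differences depend on the depth used and on barcodes near the limit. Thinned to 1000 UMIs, the mitotic difference was -0.329 points and the S-phase difference 0.0862 points, the opposite sign. In the young library 893 barcodes had exactly 2 mitotic genes and 487 exactly 3, and in the old library 758 and 328. With a limit of 5 genes the mitotic difference was -1.25 points and the S-phase difference -0.104 points. Barcodes of neither call were shallower before thinning, with medians of 8490 UMIs (young) and 8718 UMIs (old), than barcodes of both calls, with 11737 UMIs and 12347 UMIs. Barcodes removed for high doublet scores had mitotic calls in 35.2% (young) and 37.9% (old), above the kept barcodes. The part of doublets in the shares was not tested.

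Most barcodes with an S-phase call had a mitotic call too. Mitotic calls were in 72.7% of young S-phase-called barcodes (70.5 to 74.9) against 17.8% of the others, and in 77.2% (75.1 to 79.3) against 13% in the old library. In the young library 4.32% of barcodes had only an S-phase call, 11.5% both and 15% only a mitotic call. The old shares were 3.35%, 11.4% and 11.05%. The largest of these differences was in barcodes with a mitotic call only. Such barcodes still held S-phase transcripts, 1.93 (young) and 1.75 (old) S-phase UMIs per 3000 on average, against 0.538 and 0.505 in barcodes of neither call. Pclaf alone gave 1.11 (young) and 0.776 (old) of these UMIs, and the other genes were uneven. In the young library Rrm2 was detected in 9.84% of mitotic-only barcodes against 2.77% of those with neither call. Pcna was close, at 3.24% against 2.99%, and Ccne1 was below, at 1.68% against 2.26%.

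**Figure D2:**
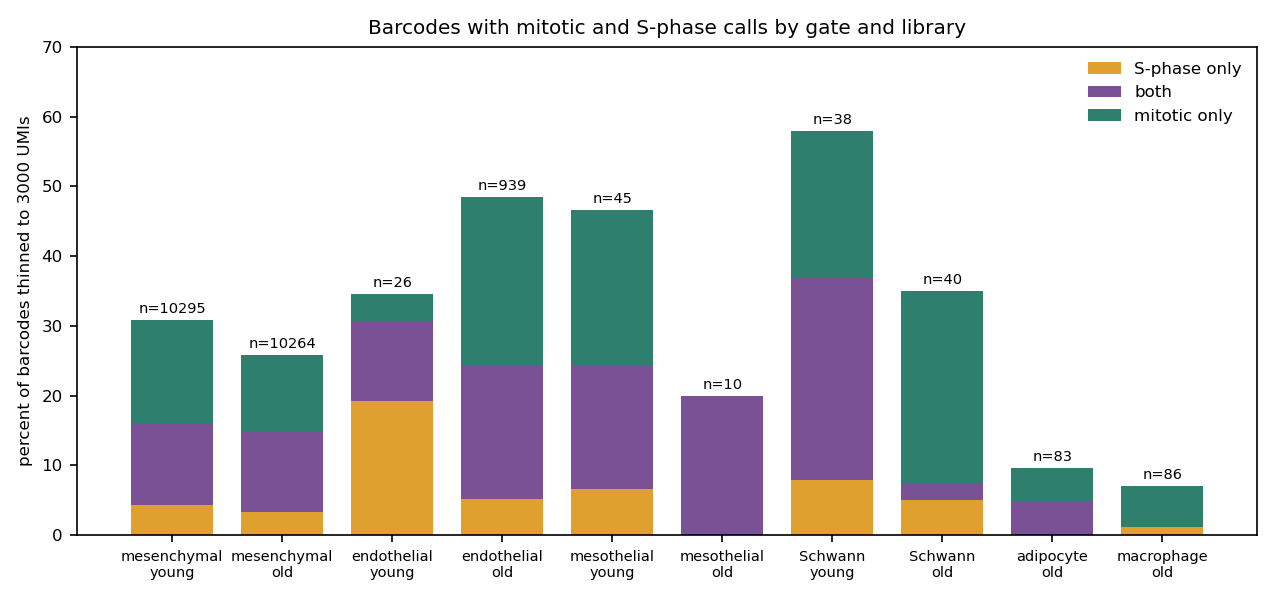
Percent of barcodes, each thinned to 3000 UMIs, with an S-phase call only, both calls or a mitotic call only, by gate and library. Numbers above bars are barcodes. Of mesenchymal barcodes 69.1% (young) and 74.2% (old) had neither call, against 51.5% of old endothelial barcodes.

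Within mitotic-called mesenchymal barcodes the old library held slightly more mitotic UMIs per barcode. They averaged 8.71 per 3000 UMIs in 2733 young and 9.70 in 2302 old barcodes (log2 0.16, 0.13 to 0.18). The share of called barcodes was lower and the content of each higher in the old library, and the summed levels differed little. In S-phase-called barcodes the S-phase UMIs were 5.49 and 5.47 per 3000. Which genes filled these counts also differed between the libraries, though the call uses the same genes.

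Cdk1 had 0.364 UMIs per 3000 in young and 0.686 in old mitotic-called barcodes (log2 0.91, 0.80 to 1.03), and it was detected in 29.2% and 45.1% of them. Ccnb1 followed with a log2 of 0.72 (0.59 to 0.85), Aurka with 0.69, Cdc20 with 0.57, Plk1 with 0.52 and Ccnb2 with 0.46. These 6 genes are kinases, cyclins and an exit activator, but not all genes of those kinds followed. Ccna2 was at 0.03, Bub1 at -0.26 and Bub1b at -0.07, with intervals that include 0. Genes of other kinds and Aurkb also had intervals above 0, namely Mki67 (0.33), Aurkb (0.36), Kif11 (0.36), Top2a (0.17) and Prc1 (0.15). Cenpe (-0.22), Cdca3 (-0.20) and Smc2 (-0.18) were lower in old called barcodes, with intervals below 0. Tyms in S-phase-called barcodes was at 0.341 and 0.516 UMIs per 3000 (0.60, 0.44 to 0.76). Cdt1 was at 0.51 (0.17 to 0.85), while Pclaf (-0.25) and Mcm6 (-0.33) were lower.

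Cdca3 and Pclaf were also lower in old barcodes of neither call. Cdca3 was detected in 432 of 7117 such young barcodes (6.07%) and 217 of 7618 old ones (2.85%). Pclaf was detected in 9.06% and 5.53%, and Ccnb2 in 4.30% and 2.51%. Cdk1 went the other way, with 3.93% and 4.83%. In old macrophage barcodes, most of which lack both calls, Cdca3 was detected in 1 of 86 (1.16%), Pclaf in 2.33%, Ccnb2 in 4.65% and Cdk1 in 6.98%. In 83 old adipocyte barcodes Cdca3 was detected in 6.02%, Pclaf in 7.23%, Ccnb2 in 1.20% and Cdk1 in 8.43%. These macrophage and adipocyte barcodes include called ones, and the uncalled mesenchymal barcodes do not. The calls use these same genes, and the macrophage and adipocyte shares rest on few barcodes. For each of these genes, the Clopper-Pearson intervals of both shares include the share in uncalled old mesenchymal barcodes. No order of the cell types is therefore read from these values. Before thinning, median depths were 8718 UMIs for uncalled old mesenchymal, 5859 for macrophage and 5893 for adipocyte barcodes.

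Genes of the same group were found in the same barcodes more often than if they were independent. For each pair with at least 5 expected joint barcodes, the count of barcodes with both was divided by the expected count. Among mitotic pairs the median ratio was 2.93 in the young (252 pairs) and 3.35 in the old library (250 pairs), and every pair was above 1. Among S-phase pairs it was 2.09 and 2.14, and between groups 1.72 and 1.99. The pairs share barcodes and depth, so these ratios are descriptive.

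The kinases Plk1 and Aurka formed the strongest young pair, with 62 joint barcodes against 10.4 expected, a ratio of 5.96. In the old library Plk1 and Cenpe stood highest (93 against 18.2, 5.11), with Plk1 and Aurka at 4.82. Ccnb2 formed the weakest mitotic pairs in the young library, with Top2a at 1.58 and with Cdk1 at 1.59. Among S-phase genes Ccne2, an early cyclin, paired most strongly with Mcm6 in the old library (4.07) and with Uhrf1 in the young (3.94), where only Cdt1 with Uhrf1 was higher (3.98). The lowest young pairs were the origin-loading gene Cdc6 with Ccnb2, at 3 barcodes against 8.15, and Mcm3 with Bub1b, at 6 against 9.89.

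**Figure D3:**
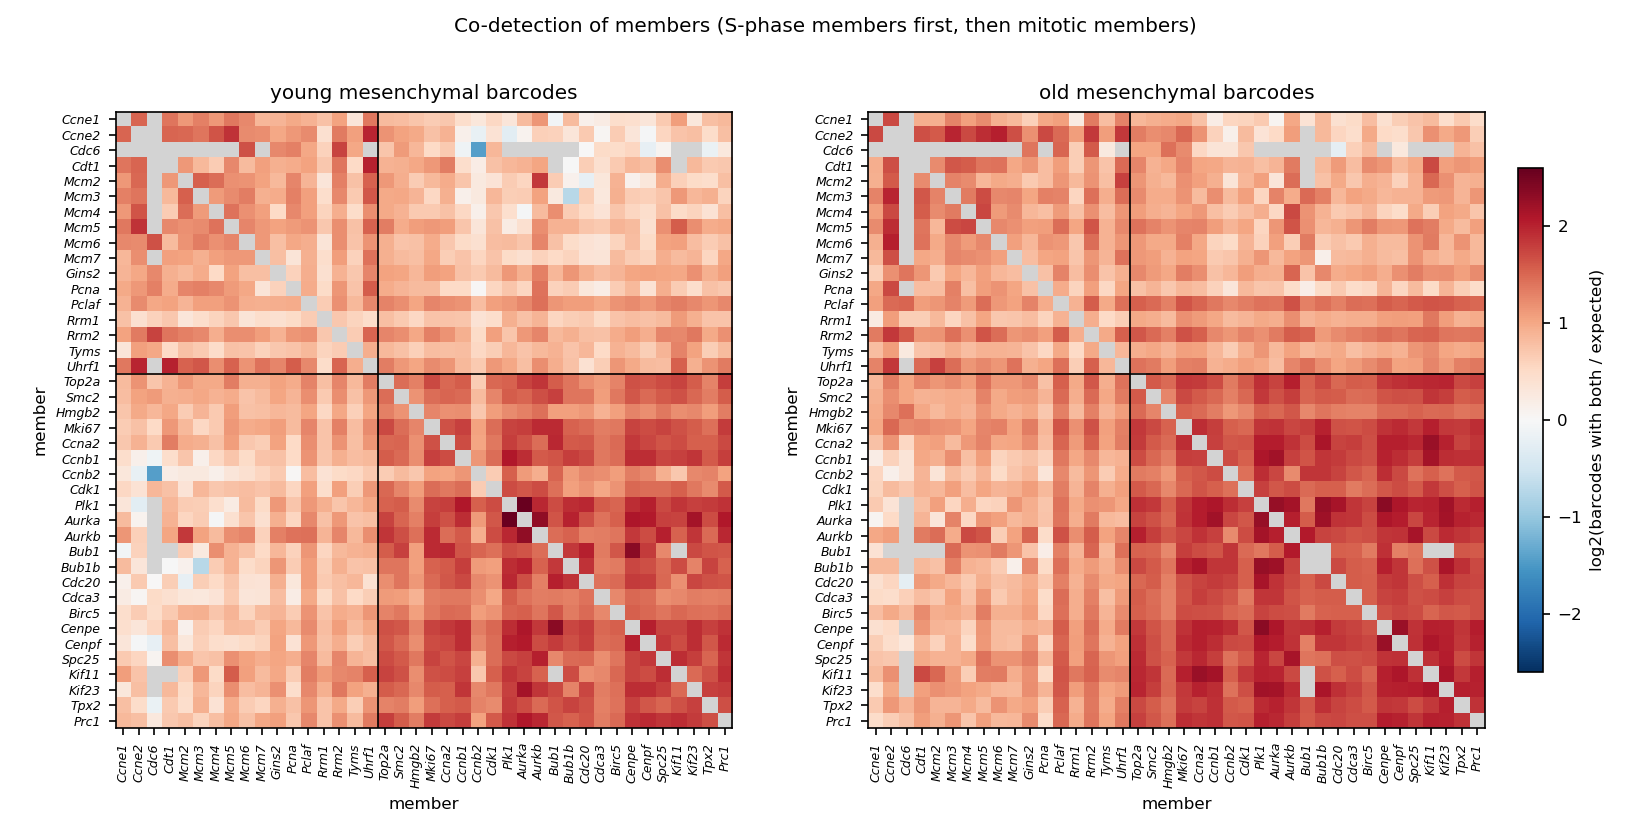
Log2 of observed over expected joint barcodes for each pair of genes in young (left) and old (right) mesenchymal barcodes thinned to 3000 UMIs. S-phase genes come first and black lines part the groups. Grey marks the diagonal and pairs with under 5 expected barcodes. The mitotic block is darkest in both libraries, with median ratios of 2.93 and 3.35.

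Genes of mitosis and of replication outside the 40 were higher in called barcodes, whichever call was made. In barcodes with only a mitotic call, 49 of 50 other mitosis genes were at least 1.5-fold above barcodes of neither call in each library, with a median log2 of 3.89 in the young and 3.98 in the old. Over all genes with at least 20 UMIs, 10.9% (young) and 10.5% (old) were that much higher. Ube2c, a ubiquitin-conjugating enzyme of mitotic exit, was at 301 against 21.3 CPM in the young library. In barcodes with only an S-phase call, 49 of 49 young and 50 of 50 old measured replication and repair genes were at least 1.5-fold higher, with medians of 1.98 and 2.16, against 12.4% and 11.6% of all genes. Counts past 1.5-fold did not separate the calls. The mitosis list differed by its medians, which were lower in S-phase-only barcodes, and the replication medians lay close together. In mitotic-only barcodes 50 of 52 young and 49 of 51 old replication and repair genes were that much higher, with medians of 1.81 and 1.97. In S-phase-only barcodes 39 of 42 young and 42 of 47 old mitosis genes were, with medians of 1.75 and 1.71. Tk1, thymidine kinase, was at 49.4 against 7.40 CPM in the young library. 

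Genes of the cell cycle inhibitor list went in both directions in mitotic-only barcodes. The list also holds genes that are not inhibitors themselves, such as Gas2l3 and Mdm2. Of 16 genes 4 were at least 1.5-fold higher and 1 lower in the young library, against 10.9% and 10.9% of all genes, and 3 were higher and 3 lower in the old, against 10.5% and 12.4%. Their medians were 0.02 and -0.11. Gas2l3 was at 31.3 against 1.64 CPM in young and 32.6 against 2.06 CPM in old mitotic-only barcodes. Cdkn2c, which encodes the CDK inhibitor p18, was at 64.5 against 18.6 CPM and 73.2 against 16.6 CPM, and Cdkn2d, which encodes p19, at 45.7 against 11.9 CPM and 86.1 against 16.9 CPM. Cdkn1b, which encodes p27, passed 1.5-fold in the young library at 50.1 against 29.8 CPM. The lower gene was Gadd45a in the young library, at 7.98 against 12.9 CPM, and the lower ones in the old were Cdkn1c, Cdkn2b and Btg1. Ube2c, Tk1 and the genes given here from the inhibitor list were picked after their values were seen.

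Between the libraries, the other cell cycle lists gave few calls in mesenchymal barcodes, except the inhibitor list. Of 50 other mitosis genes 4 had an old level at least 1.5-fold above the young one and 1 had one below it by as much. Pttg1 (securin) was at 20.6 and 33.5 CPM (log2 0.70) and Anln (anillin) at 44.6 and 28.5 CPM (-0.65). Of 53 replication and repair genes 2 were higher, with Cdc45, a helicase cofactor, at 3.48 and 6.24 CPM (0.84), and 2 lower, with Dtl, which marks Cdt1 for destruction, at 18.5 and 9.54 CPM (-0.96). Both shares are below the 19.5% and 12.4% of all genes. Of 30 genes of G1 and transcription control, 4 were higher and 3 lower, among them Ccnd2 (cyclin D2) at 484.5 and 957 CPM (0.98).

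In the inhibitor list 7 of 16 genes were at least 1.5-fold higher and 1 lower, against 19.5% and 12.4% of all genes. The median log2 of the list was 0.43, that of all genes 0.12. Not all 16 are inhibitors themselves. Cdkn1a, which encodes the CDK inhibitor p21, was at 226.6 CPM (young) and 576 CPM (old) (1.35, 1.33 to 1.37). Gadd45a, a stress-response gene, was at 10.9 and 30.7 CPM (1.49), and Trp53 at 56.4 and 111.3 CPM (0.98). Cdkn1c, which encodes p57, was lower, at 5.42 and 1.66 CPM (-1.71). Between the same mesenchymal barcodes the mitotic sum was almost the same, and mitotic calls were less frequent in the old library (22.4% against 26.5%). Any link of these values to Cdkn1a was not tested.

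Within each library, barcodes with a Cdkn1a UMI had mitotic calls more often than those without. In the young library 29.8% of 3820 barcodes with Cdkn1a had a mitotic call (28.4 to 31.3), against 24.6% of 6475 without (23.6 to 25.7). The old shares were 24.4% of 6725 (23.4 to 25.4) and 18.7% of 3539 (17.4 to 20). For Cdkn2a, which encodes p16, the shares with and without were 28.1% and 26.5% in the young and 19.9% and 22.6% in the old library, with intervals of both differences that include 0. Markers were counted in the same 3000 UMIs as the calls.

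Contractile and fibroblast markers split the calls unevenly. Acta2, smooth muscle actin, went with more mitotic calls in both libraries, 27.2% against 20.6% in the young and 24.1% against 13.3% in the old. Tagln, the SM22α gene, differed in sign, with 26.2% against 28.9% in the young (difference -2.71 points, -5.36 to -0.164) and 23.6% against 19.5% in the old library (4.06, 2.31 to 5.77). Postn, a matrix protein gene, went with fewer calls in both, 20.9% against 27.2% and 18.5% against 23.3%. Pi16, a marker of adventitial fibroblasts, had 15.5% of 1307 old barcodes against 23.4% of the others, and only 21 young barcodes. Old barcodes with Cxcl1, a chemokine gene, had 22.1% against 29.3% in the 454 without.

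**Figure D4:**
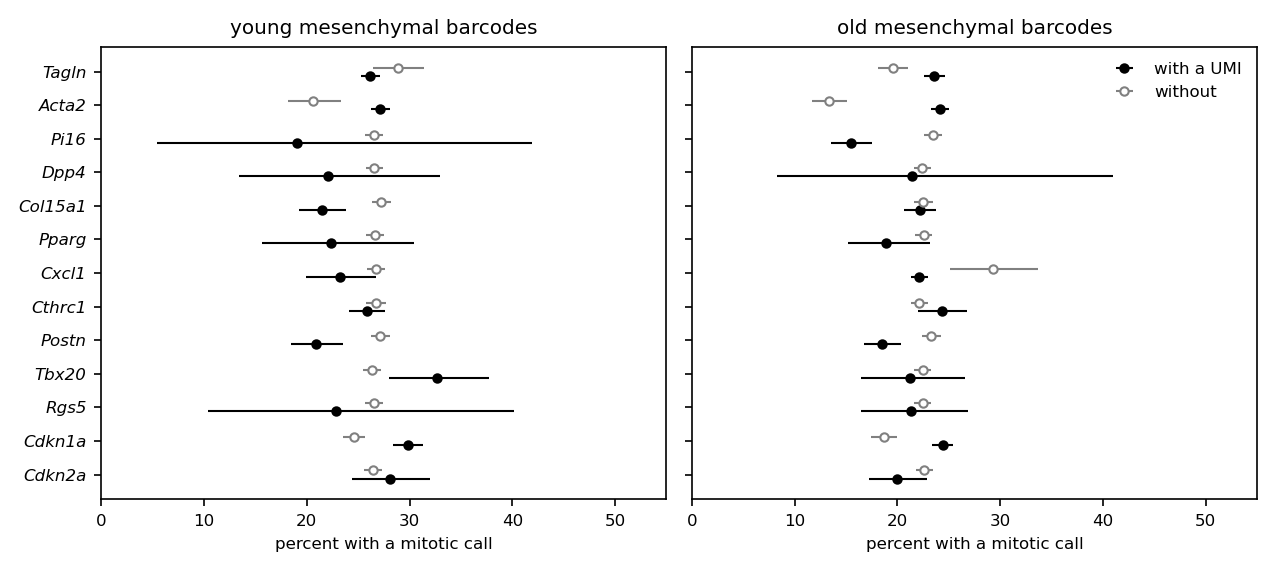
Percent of mesenchymal barcodes with a mitotic call, split by whether a UMI of the marker on the vertical axis was present (filled) or absent (open), in the young (left) and old library (right). Bars are 95% Clopper-Pearson intervals. In the old library Acta2 divides barcodes into 24.1% with and 13.3% without.

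In endothelial barcodes, the lining cells of vessels, the mitotic genes were higher in the old library, and the S-phase genes differed less. The mitotic sum was 867 CPM in 32 young barcodes (271 UMIs) and 1547 CPM in 960 old barcodes (17158 UMIs), a log2 of 0.835 (0.66 to 1.01). The S-phase sum was 656 and 742 CPM (0.18, -0.02 to 0.38). Both sets of values rest on few young barcodes, of which 3 held 50.9% of the mitotic UMIs. Mesenchymal marker UMIs in these gates were 701 CPM (young) and 808 CPM (old), against 6673 and 5470.3 CPM in mesenchymal barcodes. The mesothelial gates held more, 2142 and 2082 CPM, as did the Schwann gates, with 2083 and 1614 CPM.

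Of the 23 mitotic genes 20 were at least 1.5-fold higher in old endothelial barcodes and 1 lower, against 16.2% and 18.9% of 10901 genes, and 9 intervals lay above 0. The limit of 20 UMIs was reached mainly through the old library, with 17158 old and 271 young mitotic UMIs. The genes also share barcodes, so the counts over them are descriptive. Birc5 was at 76.8 CPM (young) and 154 CPM (old) (1.00, 0.42 to 1.65), Hmgb2 at 208 and 393 CPM (0.92, 0.56 to 1.29) and Cenpf at 38.4 and 79.3 CPM (1.05, 0.23 to 2.01). Many of these values rest on few young UMIs. The lower gene, Bub1, had 4, and of the higher genes Plk1 had 1, Aurka and Kif23 had 2 each, Kif11 had 3, Aurkb 4 and Tpx2 5. The young UMIs of the higher genes ran up to 65 (Hmgb2). Of the 17 S-phase genes 3 were higher (Rrm1, Cdt1 and Uhrf1) and 1 lower (Mcm4), and every interval included 0. Mitotic calls were in 4 of 26 young (15.4%, 4.36 to 34.9) and 406 of 939 old barcodes (43.2%, 40 to 46.5), a difference of 27.9 points (9.44 to 37.6). S-phase calls were in 30.8% and 24.4% (-6.38, -25.8 to 8.17). Thinned to 1000 UMIs, the mitotic difference was 8.54 points.

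Old endothelial barcodes also stood above old mesenchymal barcodes in both groups, helicase genes among them. The mitotic sum was higher by log2 0.57 (0.55 to 0.59) and the S-phase sum by 0.52 (0.49 to 0.55). Over single genes the median was 0.33 for the mitotic and 0.66 for the S-phase group. Hmgb2 was the highest mitotic gene and weighs on the mitotic sum. Mki67 (0.08) and Tpx2 (0.07) were among the mitotic genes whose intervals included 0, and Ccnb1 was lower (-0.21, -0.35 to -0.08). In the young library the endothelial mitotic sum was below the mesenchymal one (-0.30, -0.48 to -0.13). Other gates also stood above mesenchymal barcodes in the mitotic sum, with 1.07 in young mesothelial, 0.47 in young Schwann and 0.58 in old Schwann barcodes. In the S-phase sum young mesothelial (0.56) and young Schwann barcodes (1.01) stood above them too. Old Schwann barcodes did not (-0.22, -0.51 to 0.06). In old endothelial against old mesenchymal barcodes, 10 of 17 S-phase and 5 of 23 mitotic genes were at least 1.5-fold higher, against 16.1% of 14411 genes. That much lower were 0, against 29.7%. Mcm2, Mcm3 and Mcm5 were at 22.2, 39.2 and 33.0 CPM in endothelial and 10.3, 16.3 and 16.46 CPM in mesenchymal barcodes. Cdc6 was at 8.38 and 2.98 CPM (log2 1.49) and Hmgb2 at 393 and 135 CPM (1.54, 1.49 to 1.59). Rrm1 went the other way, at 44.4 and 61.3 CPM (-0.47, -0.60 to -0.33).

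In mesothelial barcodes, the covering cells of serous surfaces, both groups were lower in the old library, on very few barcodes. The mitotic sum was 2232 CPM in 45 young and 1238 CPM in 10 old barcodes (log2 -0.85, -1.14 to -0.57), and the S-phase sum 842 and 405 CPM (-1.06, -1.58 to -0.57). A single old barcode held 75 of the 110 mitotic UMIs (68.2%). Of the 23 mitotic genes 19 reached 20 UMIs, and of the 17 S-phase genes 8. With so few old barcodes a gene reached 20 mainly through young UMIs, so no count of directions is given. Among genes under 20 UMIs, Bub1b had 8 young and 2 old UMIs and Mcm4 had 13 and 4, both at a higher level in the old library. Hmgb2 was at 521 and 191 CPM (-1.45, -2.24 to -0.74), Cdk1 at 136 and 11.3 CPM on 86 and 1 UMIs, and Pclaf at 308 and 101 CPM (-1.60, -2.76 to -0.65). Mcm5 and Mcm6 had 0 old UMIs against 21 and 28 young ones, so they reached 20 through the young library alone. The gate held 632995 young and only 88853 old UMIs, so no loss is read from these zeros. Mitotic calls were in 18 of 45 young and 2 of 10 old barcodes. Without the collagen limit there were 256 young and 40 old barcodes, with log2 ratios of -1.04 (mitotic) and -1.02 (S-phase).

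In Schwann barcodes, the glia of peripheral nerves, the mitotic sum was alike and the S-phase sum lower in the old library. The mitotic sum was 1479 CPM in 39 young and 1558 CPM in 47 old barcodes (0.08, -0.13 to 0.28). The S-phase sum was 1145 and 444.5 CPM (-1.36, -1.70 to -1.05). Mesenchymal marker UMIs were lower in the old Schwann gate too, and their part in the difference was not tested. Without the collagen limit, on 62 and 96 barcodes, these were 0.16 and -0.70. S-phase UMIs per mitotic UMI were 0.774 in the young (0.673 to 0.890) and 0.285 in the old library (0.227 to 0.356), and 0.615 and 0.339 without the limit.

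In Schwann barcodes 7 of the 17 S-phase and 16 of the 23 mitotic genes reached 20 UMIs over both libraries, some of them through 1 library, so the counts over them are descriptive. Of the 7 S-phase genes 5 were at least 1.5-fold lower and 1 higher, against 15.1% and 17.1% of 3736 genes. Pclaf was at 452 CPM (young) and 155 CPM (old) (-1.54, -2.11 to -1.0), Rrm2 at 105 and 30.2 CPM (-1.80, -3.22 to -0.60) and Mcm6 at 66.8 and 17.3 CPM (-1.95, -3.95 to -0.38). Of the 16 mitotic genes 4 were higher, namely Ccnb1 (15.9 and 73.4 CPM), Ccnb2 (44.5 and 108 CPM), Cdk1 (54.1 and 112 CPM) and Cdc20 (35 and 73.4 CPM), and Hmgb2 was lower. The 5 richest old barcodes held 65.1% of the old mitotic UMIs. S-phase calls were in 14 of 38 young (36.8%) and 3 of 40 old barcodes (7.5%), a difference of -29.3 points (-46.0 to -11.1), which was -10.3 points at 1000 UMIs. Mitotic calls were in 50% and 30% (-20 points, -39.3 to 1.62). Without the collagen limit the S-phase difference was -14.7 points (-28.6 to -1.09) on 60 young and 85 old barcodes, and the mitotic one -6.57 points (-22.0 to 8.82).

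The 40 genes were at lower levels in old adipocyte and macrophage barcodes. Old adipocyte barcodes had 455 CPM of mitotic and 274 CPM of S-phase genes and old macrophage barcodes 229 and 152 CPM, all below the 4 gates of the old library. Mitotic calls were in 9.64% of 83 adipocyte and 5.81% of 86 macrophage barcodes, and S-phase calls in 4.82% and 1.16%. The 4 adipocyte barcodes with both calls had a median of 10.5 mitotic UMIs per 3000, against 9 in old mesenchymal barcodes with both calls, so a few rich barcodes were among them. The young library held 6 adipocyte barcodes and 1 macrophage barcode, and no young value is read from them.

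**Figure D5:**
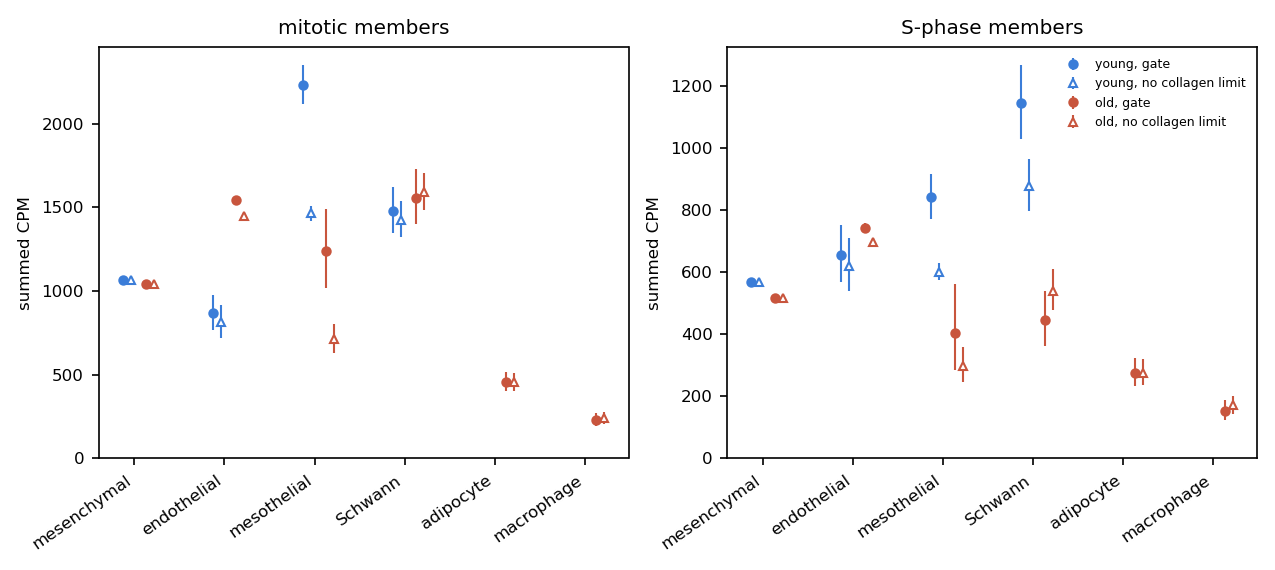
Summed CPM of the mitotic (left) and S-phase genes (right) by gate in the young (blue) and old library (red). Filled circles use the collagen limit, open triangles do not, and bars are 95% Poisson intervals. Mitotic levels are 1066 and 1042 CPM in mesenchymal but 867 and 1547 CPM in endothelial barcodes.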

How the data were processed

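Single-cell RNA was measured in 1 young and 1 old library, made with the 10x Genomics Chromium 3′ kit, version 2, per the labels' protocols. The deposited files hold raw UMI counts for each gene and barcode, with no scaling, written by Cell Ranger 3.0.1 per the file headers, on build mm10 per the submitters' processing notes. Which annotation release and barcode filter the authors used is not given in the sources used here. Totals were 130398999 UMIs over 13104 young and 147166475 UMIs over 14636 old barcodes.

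A barcode needed at least 500 detected genes and no more than 10% mitochondrial UMIs. Scrublet (scanpy 1.11.5) marked 0 barcodes at its automatic threshold, so that threshold did not work, and the highest scores were removed at 0.8% per 1000 barcodes, 1302 young and 1504 old barcodes. How many doublets remain is not known. Barcodes passing several gates (0 young, 11 old), mixed barcodes (236 and 223) and barcodes of no gate (438 and 327) were left out. Mesenchymal barcodes needed at least 3 of 8 markers. UMIs were summed per gate and library, and ratios carry exact conditional Poisson intervals (scipy 1.17.1). In ratios a count of 0 was set to 3. Shares carry Clopper-Pearson and their differences Newcombe intervals. By rule any of the 40 genes could be named, in the small gates those with at least 20 UMIs over both libraries. Of each other pathway list, up to 4 genes with the largest ratio and at least 100 UMIs could be. Genes outside this rule were also named, among them Bub1b and Mcm4 in mesothelial barcodes. Others were Ndc80, Nuf2, Spc24, Ube2c, Tk1 and some genes of the inhibitor list. The counting was tested on simulated data. Of 31053 gene identifiers 30934 were found in GENCODE vM21. The members and lists were chosen with earlier results of these data known.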

Additional observations from a re-analysis of the deposited data

Results flagged for a closer look

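The summed mitotic genes moved in opposite directions between the gates, which marks them for a closer look. Log2(old/young) was 0.835 in endothelial barcodes, -0.0325 in mesenchymal barcodes and -0.8505 in mesothelial barcodes. The difference between gates was not tested, since each age had 1 library. The endothelial value rests on 32 young barcodes and the mesothelial value on 10 old barcodes, of which 1 held 75 of 110 mitotic UMIs.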

How the results depend on the processing

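Over 18 results, 107 recomputed values stayed close to the reported ones, 18 moved and 1 changed sign. With median-of-ratios size factors the mesenchymal log2 ratios were -0.153 (mitotic) and -0.26 (S-phase), and 2 genes were at least 1.5-fold lower. Thinned to 1000 UMIs, the mesenchymal share differences were -0.329 points (mitotic) and 0.0862 points (S-phase, the changed sign), the endothelial mitotic one 8.54 and the Schwann S-phase one -10.3. With calls needing 2 genes the mesenchymal differences were -5.41 and -3.11, and with 5 genes -1.25 and -0.104. The mesenchymal mitotic log2 ratio was -0.0172 with at least 200 genes and at most 20% mitochondrial UMIs, and -0.0175 without doublet removal, where the S-phase one was -0.123. With 6 of 10 markers the endothelial mitotic log2 ratio was 1.05, the mesothelial ones -3.05 and -2.16 and the mesothelial mitotic share difference -45.5 points. Without the collagen limit the Schwann S-phase ratio was -0.698. The causes were not tested. Leaving out barcodes found in both libraries, an alternative chosen after seeing the data, moved 0 of 18 results. No paired analysis was possible because each age had 1 library. Few barcodes limit the endothelial, mesothelial and Schwann values.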

Other observations

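Barcodes left out of the gates also held transcripts of the 40 genes. Barcodes with under 500 genes had 920.2 CPM of mitotic genes in the young (177 barcodes) and 441 CPM in the old library (623 barcodes). Barcodes over 10% mitochondrial UMIs had 681 CPM (240 barcodes) and 544 CPM (846 barcodes). Young mesenchymal barcodes with at least 2 pericyte markers had mitotic calls in 6 of 13 (46.2%, 19.2 to 74.9) and S-phase calls in 3 of 13 (23.1%, 5.04 to 53.8), against 26.5% and 15.9% of the other 10282. Old mesenchymal barcodes with at least 2 pericyte markers had mitotic calls in 12 of 66 (18.2%, 9.76 to 29.6) and S-phase calls in 3 of 66 (4.55%, 0.947 to 12.7), against 22.5% and 14.8% of the other 10198. Old striated muscle barcodes, 13 in number, had mitotic calls in 2.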
